A study of Mus musculus with 6 samples.

Results

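The 46 genes described here are Wnt ligands, the enzymes that release them, their receptors, their secreted antagonists and the genes that Wnt signalling switches on or that restrain it. They were taken by name from the count table of mouse dermal fibroblasts of the ear, and all 46 were among its 57010 gene identifiers. Of these, 44 passed the filter on low counts, which 16093 genes of the whole table passed. The RNA came from 500000 fibroblasts a sample, kept for 3 days on a soft polyacrylamide gel of 1 kPa, on a stiffer gel of 20 kPa or on glass, the control, with 2 libraries each. Polyacrylamide is a synthetic gel that can be cast at a chosen stiffness. All 6 libraries share the tissue and the culture time, and the labels name no genotype, strain, age or added agent. Nor do they say that replicates are separate cultures or animals, so the p-values reflect only how far these samples spread, and that spread may be technical.

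Wnt proteins are secreted lipid-modified signals that bind a frizzled receptor together with the co-receptors Lrp5 or Lrp6. In the canonical branch the signal stops the breakdown of beta-catenin (Ctnnb1), which enters the nucleus and works with the DNA-binding proteins Lef1, Tcf7, Tcf7l1 and Tcf7l2. In skin, Wnt signals from and to dermal fibroblasts are known for their part in hair follicle formation and in fibrosis, and several of the genes they induce encode inhibitors of the same pathway.

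Totals were 17669006 to 21350111 counts per library. Levels are given as CPM, a gene's count scaled to the depth of its library, and a floor of 3 counts lay at 0.139 to 0.174 CPM. Changes are log2 fold changes with a standard error (SE), and a gene was called changed at an adjusted p below 0.05 in edgeR's quasi-likelihood test, adjusted over all 16093 genes. Fibroblast markers stood far above those of other cells: the sum of 10 of them was 28400 to 29500 CPM on 1 kPa, 30900 to 32200 CPM on 20 kPa and 19600 to 21000 CPM on glass. Of the marker lists of other cells, chondrocyte genes had the largest sums, 854 to 880 CPM on 1 kPa, 1460 to 1520 CPM on 20 kPa and 556 to 590 CPM on glass. In these bulk samples, fewer cells of a type and less RNA per cell cannot be told apart.

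Against glass, the antagonists Wif1, Sfrp1 and Sfrp2 and the feedback genes Lef1, Notum, Axin2, Apcdd1 and Nkd1 rose on both gels. Other antagonists went the other way, Dkk2 on both gels and Dkk3 and Frzb on 1 kPa. The transcription factors Tcf7l1 and Tcf7l2 showed no call. On 1 kPa, 23 of the 44 tested Wnt genes were higher and 9 lower than on glass, where 23.0% of all tested genes were higher and 22.0% lower. On 20 kPa, 27 were higher and 6 lower, where 22.3% of all tested genes were higher and 19.6% lower. The median log2 fold change of the 44 genes was 0.40 on 1 kPa and 0.34 on 20 kPa, beside 0.00 and 0.01 over all tested genes. Both comparisons share the glass libraries. At least 2-fold higher were 13 Wnt genes on 1 kPa and 16 on 20 kPa, against 9.63% and 8.51% of all tested genes. At least 2-fold lower than on glass were 1 gene on 1 kPa and 2 on 20 kPa, against 3.01% and 2.99% of all tested genes. Between the gels, 3 Wnt genes were higher and 17 lower on 1 kPa than on 20 kPa, where 9.92% of all tested genes were higher and 8.94% lower. The 3 were 1 with DESeq2, 0 without 20 kPa replicate 2, 1 without 1 kPa replicate 2 or 20 kPa replicate 1, and 4 at most when a library was left out. By at least 2-fold, 0 were higher and 3 lower, against 1.75% and 1.35% of all tested genes. In either direction, 32 of 44 changed on 1 kPa and 33 on 20 kPa over glass, against 45.0% and 41.8% of all tested genes, and 20 differed between the gels, against 18.9%. Over the 3 substrates together, 35 of the 44 differed, against 51.2% of all tested genes.

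**Figure D1:**
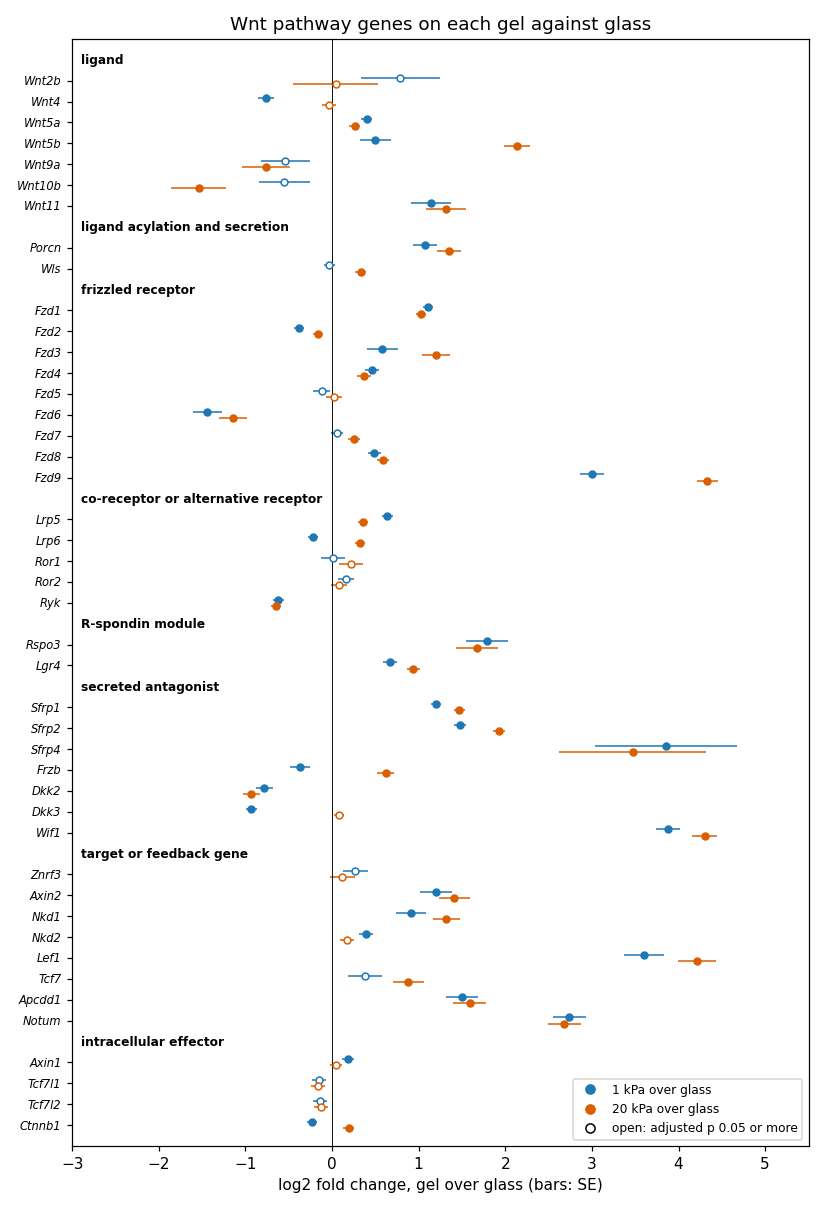
Log2 fold change of the 44 tested Wnt genes on each gel over glass, grouped by role; points are the fitted values, bars the SE, and open points did not pass an adjusted p of 0.05. Wif1, Lef1 and Fzd9 lie farthest to the right on 20 kPa, at 4.30, 4.21 and 4.33, and Wnt5b and Fzd9 lie farthest apart between the gels.

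Promoter sequence was matched by symbol in RefSeq for 30 of the 46 genes. The 250 bases before the annotated start are shown on the gene's own strand, 5′ to 3′, for genes that changed on both gels: the nuclear effector Lef1, the feedback gene Axin2, the antagonist Sfrp2 and the ligand Wnt11 were higher on each gel than on glass, and the antagonist Dkk2 was lower. Capitals mark a match to CTTTGAA or CTTTGAT, forms of the core letters bound by Tcf and Lef proteins, searched on both strands. Other forms of this core were not searched. The windows lie in GRCm38.p6 at chr3:131110047-131110296 for Lef1, chr11:108920099-108920348 for Axin2, chr3:83766071-83766320 for Sfrp2, chr7:98834862-98835111 for Wnt11 and chr3:132085042-132085291 for Dkk2, all on the plus strand.
Lef1: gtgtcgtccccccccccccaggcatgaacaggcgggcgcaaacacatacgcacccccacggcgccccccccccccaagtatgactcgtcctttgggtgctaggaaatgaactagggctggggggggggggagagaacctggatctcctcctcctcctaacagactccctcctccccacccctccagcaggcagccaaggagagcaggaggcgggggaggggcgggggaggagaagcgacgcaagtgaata
Axin2: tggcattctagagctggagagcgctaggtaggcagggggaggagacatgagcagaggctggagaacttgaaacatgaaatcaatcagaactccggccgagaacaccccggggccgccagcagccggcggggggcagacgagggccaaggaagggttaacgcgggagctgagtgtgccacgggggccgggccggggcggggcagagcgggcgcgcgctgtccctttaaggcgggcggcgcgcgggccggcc
Sfrp2: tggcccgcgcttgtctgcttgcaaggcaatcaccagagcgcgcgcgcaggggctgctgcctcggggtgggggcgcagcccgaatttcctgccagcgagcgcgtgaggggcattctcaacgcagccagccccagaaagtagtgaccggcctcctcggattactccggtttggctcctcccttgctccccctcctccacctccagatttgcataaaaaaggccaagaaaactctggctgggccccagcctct
Wnt11: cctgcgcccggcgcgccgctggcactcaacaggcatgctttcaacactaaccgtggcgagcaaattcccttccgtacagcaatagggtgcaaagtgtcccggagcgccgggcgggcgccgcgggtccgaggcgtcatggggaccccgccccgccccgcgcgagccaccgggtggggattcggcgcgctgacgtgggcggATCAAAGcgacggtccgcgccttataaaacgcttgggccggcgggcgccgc
Dkk2: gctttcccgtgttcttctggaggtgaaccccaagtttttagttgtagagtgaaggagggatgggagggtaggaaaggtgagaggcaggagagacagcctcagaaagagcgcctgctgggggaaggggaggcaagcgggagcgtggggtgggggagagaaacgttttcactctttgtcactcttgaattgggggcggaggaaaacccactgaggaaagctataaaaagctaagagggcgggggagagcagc
Only the Wnt11 window holds a match among these 5, at position -51 from the start, on the opposite strand. Wnt11 and Lef1 have further windows, not shown, and none of these holds a match. Over all 40 windows of the 30 genes, 2 held a match, the Wnt11 window shown and 1 of the 3 windows of Wnt5b. This is 5.0%, beside 7.48% of all 32851 promoter windows of the same length. The windows of the Wnt genes held a median of 16 CG dinucleotides, against 6 over all windows. Other known regulatory sites of these genes, such as introns and distal enhancers, lie outside these windows.

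Of the 7 tested ligands, 3 were higher and 1 lower on 1 kPa than on glass, and 3 higher and 2 lower on 20 kPa. Of all tested genes, 23.0% were higher and 22.0% lower on 1 kPa, and 22.3% higher and 19.6% lower on 20 kPa. Wnt5b had the largest change. Wnt5b, a ligand known for the non-canonical branch, which works without beta-catenin, lies on the minus strand of chromosome 6 (119432531 to 119544347, GRCm38). It was at 5.26 and 5.49 CPM on 1 kPa, 18.2 and 15.5 CPM on 20 kPa and 3.84 and 3.77 CPM on glass. Only the 20 kPa libraries stood high, and no groups overlapped. It rose on 20 kPa against glass by 2.14 (SE 0.15, edgeR adjusted p = 5.51e-13) and was lower on 1 kPa than on 20 kPa (-1.65, SE 0.14, edgeR adjusted p = 2.66e-10). Its smaller rise on 1 kPa over glass (0.50, SE 0.18, edgeR adjusted p = 0.0233) was lost with DESeq2 and without any one of the 1 kPa or glass libraries (0.0596 to 0.0968).

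Wnt5a, a close relative of Wnt5b, was the most abundant ligand per length in every group, at 15.6, 14.1 and 11.8 CPM per kb of exon on 1 kPa, 20 kPa and glass. It was at 122 and 122 CPM on 1 kPa, 111 and 110 CPM on 20 kPa and 91.5 and 93.8 CPM on glass. The groups did not overlap, and the changes were small: 0.40 on 1 kPa (SE 0.06, edgeR adjusted p = 2.14e-06) and 0.26 on 20 kPa (SE 0.06, edgeR adjusted p = 0.000859) over glass. Between the gels it had no call (0.14, SE 0.06, edgeR adjusted p = 0.0932), though it passed without either glass library and with only the gels in the fit (0.0306 to 0.0398). Its share of the summed level per length of the 8 listed ligands was 60.7% and 62.0% on 1 kPa, 45.1% and 44.7% on 20 kPa and 48.1% and 48.2% on glass. That sum leaves out Wnt16, at 3.74, 5.57 and 5.14 CPM per kb on 1 kPa, 20 kPa and glass.

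Wnt4, which in mice is needed for kidney and female reproductive tract development, was low on the soft gel. It was at 23.1 and 21.2 CPM on 1 kPa, 34.3 and 39.3 CPM on 20 kPa and 37.7 and 37.9 CPM on glass. The 1 kPa libraries lay below the other 4, and those of 20 kPa and glass overlapped. It was lower on 1 kPa than on glass (-0.76, SE 0.09, edgeR adjusted p = 2.99e-08) and than on 20 kPa (-0.73, SE 0.09, edgeR adjusted p = 3.04e-07). On 20 kPa against glass the value was -0.04 (SE 0.08, edgeR adjusted p = 0.763).

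Wnt11 and Wnt10b were rare and moved in opposite directions on 20 kPa. Wnt11, a ligand of the non-canonical branch that guides cell movements in embryos, was at 3.95 and 4.65 CPM on 1 kPa, 4.58 and 5.09 CPM on 20 kPa and 1.76 and 2.15 CPM on glass. It rose by 1.14 (SE 0.23, edgeR adjusted p = 0.000174) on 1 kPa and by 1.32 (SE 0.23, edgeR adjusted p = 2.06e-05) on 20 kPa. Wnt10b, a canonical ligand that restrains fat cell formation in mice, was at 1.85 and 1.74 CPM on 1 kPa, 0.877 and 0.92 CPM on 20 kPa and 2.497 and 2.784 CPM on glass. It fell on 20 kPa against glass by 1.54 (SE 0.32, edgeR adjusted p = 0.000222). Its difference between the gels (1.00 for 1 kPa over 20 kPa, SE 0.34, edgeR adjusted p = 0.0382) was lost with DESeq2 and without any one of the gel libraries (0.118 to 0.176).

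The other listed ligands had low levels. Wnt9a had 1.60 to 2.87 CPM in the 6 libraries, and its fall on 20 kPa against glass (-0.76, SE 0.28, edgeR adjusted p = 0.029) was lost with DESeq2 and without any one of the 20 kPa or glass libraries (0.0582 to 0.128). Wnt2b had 0.484 to 1.85 CPM and no call in any pair. Wnt2 did not pass the filter and had 1 to 3 counts per library, at or below the floor. Differences in Wnt2 were not detectable at this depth. Wnt16, a ligand outside the list, averaged 16.3 CPM on 1 kPa, 24.3 CPM on 20 kPa and 22.4 CPM on glass. It was lower on 1 kPa than on glass (-0.45, SE 0.10, edgeR adjusted p = 0.000726) and than on 20 kPa (-0.57, SE 0.10, edgeR adjusted p = 0.000125).

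The machinery that releases ligands rose as well. Porcn, the enzyme that attaches the lipid to Wnt proteins, was at 12.1 and 13.8 CPM on 1 kPa, 17.0 and 14.5 CPM on 20 kPa and 5.69 and 6.73 CPM on glass. Both gels lay above glass, by 1.07 on 1 kPa (SE 0.14, edgeR adjusted p = 3.18e-07) and 1.35 on 20 kPa (SE 0.14, edgeR adjusted p = 2.26e-09). Wls, the carrier that brings Wnt proteins to the cell surface, was higher on 20 kPa only, at 228 and 219 CPM on 1 kPa, 293 and 280 CPM on 20 kPa and 223 and 231 CPM on glass. It was lower on 1 kPa than on 20 kPa by a log2 value of -0.36 (SE 0.06, edgeR adjusted p = 1.78e-05), and on 1 kPa it had no call against glass (-0.03, SE 0.06, edgeR adjusted p = 0.745).

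Among the frizzled receptors, the change in Fzd9 was by far the largest of the 9. Fzd9, known in mice for roles in B cells and bone formation, is a single-exon gene on the minus strand of chromosome 5 (135248938 to 135251230). It was at 26.5 and 26.6 CPM on 1 kPa, 70.5 and 63.0 CPM on 20 kPa and 3.93 and 2.55 CPM on glass. The 3 groups lay apart, with 20 kPa highest. It was 8.0-fold higher on 1 kPa (log2 3.00, SE 0.14, edgeR adjusted p = 1.71e-17) and 20.1-fold higher on 20 kPa (log2 4.33, SE 0.12, edgeR adjusted p = 2.4e-22) than on glass. On 1 kPa it was lower than on 20 kPa (-1.33, SE 0.09, edgeR adjusted p = 1.12e-12). Its share of the summed frizzled level per length was 6.16% and 6.20% on 1 kPa, 14.2% and 13.7% on 20 kPa and 1.29% and 0.878% on glass.

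Fzd1, a receptor of the canonical branch, was the most abundant frizzled per length on both gels. It was at 421 and 419 CPM on 1 kPa, 413 and 381 CPM on 20 kPa and 199 and 190 CPM on glass. Each gel lay about 2-fold above glass, by 1.11 on 1 kPa (SE 0.06, edgeR adjusted p = 5.47e-16) and 1.03 on 20 kPa (SE 0.06, edgeR adjusted p = 4.12e-15), and the gels had no call between them. Its share of the summed frizzled level per length was 53.4% in both 1 kPa libraries, 45.5% and 45.1% on 20 kPa and 35.7% and 35.8% on glass. On glass Fzd2 was slightly higher per length, at 48.1 CPM per kb against 46.3 CPM per kb for Fzd1.

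Fzd6 fell on both gels. Fzd6, known for orienting hair follicles in mouse skin, was at 3.70 and 3.31 CPM on 1 kPa, 4.58 and 4.07 CPM on 20 kPa and 9.43 and 9.63 CPM on glass. It fell by 1.44 (SE 0.17, edgeR adjusted p = 4.07e-08) on 1 kPa and by 1.14 (SE 0.16, edgeR adjusted p = 1.22e-06) on 20 kPa. Fzd3, which guides axons and also orients hair, was at 5.95 and 7.40 CPM on 1 kPa, 10.9 and 9.40 CPM on 20 kPa and 4.39 and 4.47 CPM on glass. It rose by 1.20 (SE 0.16, edgeR adjusted p = 4.73e-07) on 20 kPa, and its rise on 1 kPa (0.58, SE 0.18, edgeR adjusted p = 0.0071) was lost without 1 kPa replicate 2 (0.124). Its difference between the gels (-0.61, SE 0.15, edgeR adjusted p = 0.00418) was lost without 1 kPa replicate 1 or 20 kPa replicate 1 (0.094 to 0.116).

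The other frizzled genes moved by less than 0.6 on the log2 scale. Fzd8 and Fzd4 were higher on each gel than on glass, by 0.49 and 0.46 on 1 kPa and by 0.59 and 0.37 on 20 kPa (SE 0.07 to 0.08). Fzd2 fell on 1 kPa against glass by 0.38 (SE 0.06, edgeR adjusted p = 2.61e-06). Its values on 20 kPa against glass (-0.16, edgeR adjusted p = 0.0242) and between the gels (-0.22, edgeR adjusted p = 0.00661) were small. The first call was lost with total counts, with unfiltered genes and when any library except glass replicate 2 was left out (0.0532 to 0.174), and the second without either 1 kPa library or 20 kPa replicate 1 (0.0787 to 0.12), while the values stayed within -0.20 to -0.12 and -0.26 to -0.20. Fzd7 was higher on 20 kPa than on glass (0.25, SE 0.07, edgeR adjusted p = 0.00274), but not without 20 kPa replicate 1 (0.0513), and its call between the gels (-0.19, edgeR adjusted p = 0.0403) was lost under 8 of 13 alternatives, among them each omission of a gel library (0.0537 to 0.308). Fzd5 had no call, at 20.0 to 23.3 CPM in the 6 libraries.

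The co-receptors Lrp5 and Lrp6, which bind Wnt together with a frizzled receptor, had different orders over the substrates. Lrp5 was at 205.3 and 202.4 CPM on 1 kPa, 176 and 161 CPM on 20 kPa and 140 and 122 CPM on glass. It was highest on the soft gel, by 0.64 over glass (SE 0.06, edgeR adjusted p = 1.61e-09) and by 0.27 over 20 kPa (SE 0.06, edgeR adjusted p = 0.0023), the second lost without 20 kPa replicate 2 (0.117). Lrp6 was at 223 and 217 CPM on 1 kPa, 326 and 312 CPM on 20 kPa and 262.0 and 248.7 CPM on glass. The soft gel held the lowest Lrp6 and the stiffer gel the highest, a log2 difference of -0.54 for 1 kPa over 20 kPa (SE 0.06, edgeR adjusted p = 1.78e-08). On 20 kPa Lrp6 rose over glass by 0.32 (SE 0.06, edgeR adjusted p = 2.77e-05), and on 1 kPa it fell by 0.22 (SE 0.06, edgeR adjusted p = 0.00253), which was lost without 1 kPa replicate 2 (0.0711).

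Of the alternative receptors Ryk, Ror1 and Ror2, Ryk changed. Ryk, a kinase-like receptor without kinase activity, was at 221 and 231 CPM on 1 kPa, 226 and 219 CPM on 20 kPa and 344 and 352 CPM on glass. It fell by 0.62 on 1 kPa (SE 0.06, edgeR adjusted p = 1.33e-10) and by 0.65 on 20 kPa (SE 0.06, edgeR adjusted p = 6.69e-11). Ror1 and Ror2, which are among the receptors of Wnt5a, had no call in any pair, at 8.32 to 10.4 CPM and 25.9 to 31.7 CPM in the 6 libraries.

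R-spondins are secreted proteins that raise the number of frizzled receptors at the surface by acting on Lgr receptors and the ligases Znrf3 and Rnf43. Rspo3 was at 6.72 and 4.82 CPM on 1 kPa, 5.51 and 5.23 CPM on 20 kPa and 1.43 and 1.97 CPM on glass, and rose by 1.79 (SE 0.24, edgeR adjusted p = 2.76e-07) and 1.67 (SE 0.24, edgeR adjusted p = 1.01e-06) on 1 kPa and 20 kPa. Its receptor Lgr4 was at 42.3 and 40.1 CPM on 1 kPa, 50.2 and 49.2 CPM on 20 kPa and 25.4 and 26.4 CPM on glass. Both gels exceeded glass, by 0.67 (SE 0.08, edgeR adjusted p = 5.72e-08) on 1 kPa and 0.94 (SE 0.08, edgeR adjusted p = 4.99e-11) on 20 kPa. The difference in Lgr4 between the gels (-0.27, edgeR adjusted p = 0.0123) was lost with DESeq2, without 1 kPa replicate 2 and without either 20 kPa library (0.058 to 0.187). Znrf3 was at 10.7 and 10.8 CPM on 1 kPa, 9.89 and 9.44 CPM on 20 kPa and 7.81 and 10.2 CPM on glass, with no call (edgeR adjusted p = 0.123 on 1 kPa against glass), though it passed without glass replicate 2 (0.0201). Rnf43 did not pass the filter and had 0 to 2 counts per library.

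Among the 7 secreted antagonists, 4 were higher and 3 lower on 1 kPa than on glass, and 5 higher and 1 lower on 20 kPa, with Sfrp4 testable only if higher on a gel. The shares over all tested genes were 23.0% higher and 22.0% lower on 1 kPa, and 22.3% higher and 19.6% lower on 20 kPa. Wif1 had the largest rise. Wif1 binds Wnt proteins outside the cell and lies on the plus strand of chromosome 10 (121033960 to 121100650). It was at 28.3 and 27.1 CPM on 1 kPa, 39.0 and 35.4 CPM on 20 kPa and 1.90 and 1.86 CPM on glass. Every gel library was more than 10-fold above every glass library. The fold changes over glass were 14.7 on 1 kPa (log2 3.88, SE 0.14, edgeR adjusted p = 8.23e-20) and 19.7 on 20 kPa (log2 4.30, SE 0.14, edgeR adjusted p = 2.77e-21), and 1 kPa was lower than 20 kPa (-0.42, SE 0.09, edgeR adjusted p = 0.000639).

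The secreted frizzled-related proteins carry the Wnt-binding domain of frizzled receptors without the membrane part. Sfrp1 was the most abundant of them per length, with 283 and 290 CPM on 1 kPa, 348 and 344 CPM on 20 kPa and 126 and 124 CPM on glass. It rose by 1.20 on 1 kPa (SE 0.06, edgeR adjusted p = 5.11e-17) and by 1.47 on 20 kPa (SE 0.06, edgeR adjusted p = 4.47e-19). Sfrp2, whose promoter is shown above, was at 84.9 and 78.3 CPM on 1 kPa, 108 and 115 CPM on 20 kPa and 30.1 and 28.4 CPM on glass. It rose by 1.48 (SE 0.07, edgeR adjusted p = 1.34e-16) and 1.93 (SE 0.07, edgeR adjusted p = 1.74e-19) on 1 kPa and 20 kPa. Both genes were lower on 1 kPa than on 20 kPa, Sfrp1 by a log2 value of -0.27 (edgeR adjusted p = 0.000508) and Sfrp2 by -0.45 (edgeR adjusted p = 5.34e-06).

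Sfrp4 and Frzb belong to the same family. Sfrp4 had 32 counts on 1 kPa and 26 on 20 kPa in both libraries together, against 2 on glass (edgeR adjusted p = 0.000258 on 1 kPa and 0.00141 on 20 kPa). This was a ratio over glass of 16.2 on 1 kPa (95% exact counting interval 4.13 to 140.0) and 12.3 on 20 kPa (3.07 to 107.0). The intervals cover counting error only. Sfrp4 passed the filter through the gels. Frzb, also known as Sfrp3 and abundant in cartilage, was at 13.4 and 11.99 CPM on 1 kPa, 25.2 and 25.3 CPM on 20 kPa and 17.1 and 15.7 CPM on glass. It rose on 20 kPa over glass by 0.62 (SE 0.10, edgeR adjusted p = 8.07e-06) and was lower on 1 kPa than on 20 kPa (-0.99, SE 0.10, edgeR adjusted p = 1.59e-08). Its fall on 1 kPa against glass (-0.37, SE 0.11, edgeR adjusted p = 0.00672) did not hold without 1 kPa replicate 2 or glass replicate 1 (0.0621 to 0.103).

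Dickkopf proteins are a separate family of secreted regulators, of which Dkk2 binds Lrp5 and Lrp6. Dkk2 was at 13.6 and 14.6 CPM on 1 kPa, 12.3 and 13.0 CPM on 20 kPa and 24.6 and 23.6 CPM on glass. It fell on both gels, by 0.78 (SE 0.10, edgeR adjusted p = 3.04e-07) on 1 kPa and 0.93 (SE 0.10, edgeR adjusted p = 1.34e-08) on 20 kPa. Dkk3, a divergent member whose action on Wnt signalling is less clear, lies on the minus strand of chromosome 7 (112116017 to 112159057). It was at 133 and 135 CPM on 1 kPa, 274 and 264 CPM on 20 kPa and 260.8 and 249.3 CPM on glass. The soft gel stood alone at a low level, with -0.93 against glass (SE 0.06, edgeR adjusted p = 3.03e-14) and -1.0 against 20 kPa (SE 0.06, edgeR adjusted p = 3.01e-14). On 20 kPa against glass the value was 0.08 (SE 0.06, edgeR adjusted p = 0.293).

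**Figure D2:**
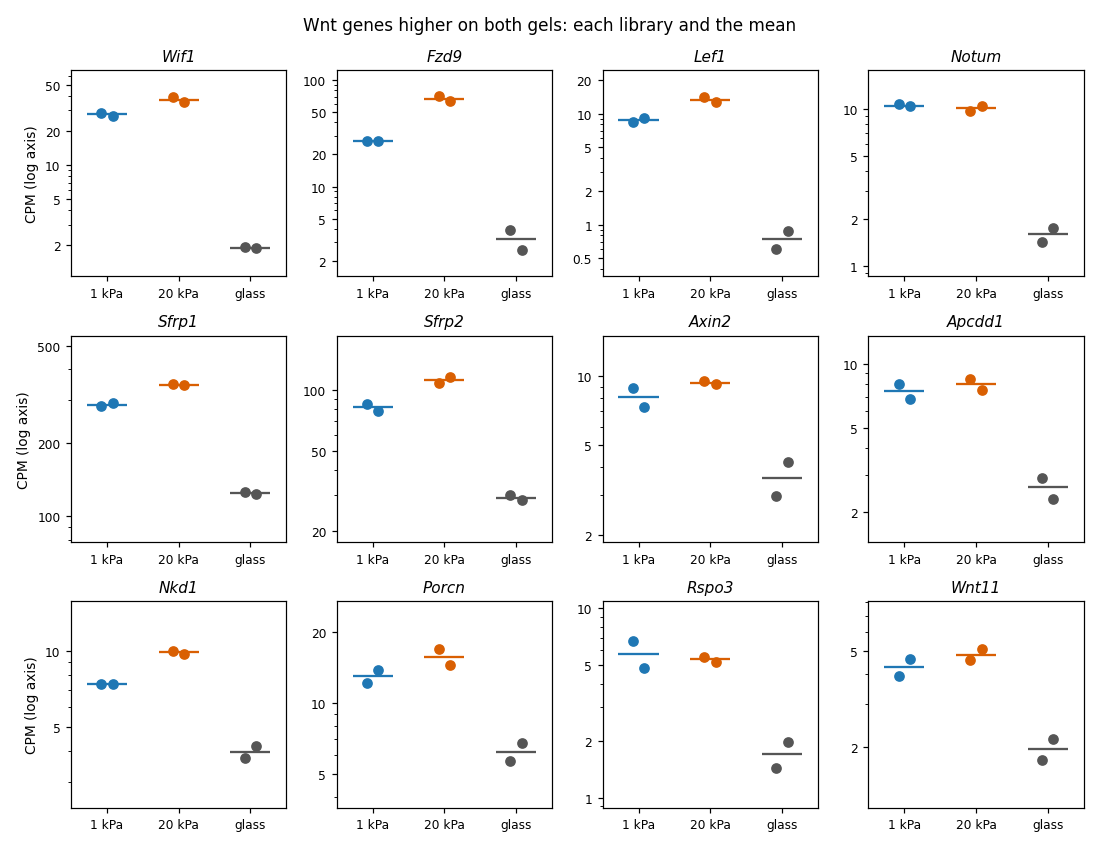
CPM of 12 Wnt genes in each library on a log axis, by substrate; points are libraries and lines the mean of 2. In each panel both gels lie above glass, and Wif1 reaches 39.0 CPM on 20 kPa against 1.90 CPM at most on glass.

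Of the 8 tested target and feedback genes, 6 were higher on each gel than on glass. Over all tested genes, 23.0% were higher on 1 kPa and 22.3% on 20 kPa. The 6 were not the same genes, since Nkd2 was called on 1 kPa only and Tcf7 on 20 kPa only. Znrf3 had no call on either gel. Lef1, a DNA-binding partner of beta-catenin that is itself induced by Wnt signals and marks the dermis of developing skin in mice, lies on the plus strand of chromosome 3 (131110471 to 131224356). It was at 8.48 and 9.14 CPM on 1 kPa, 14.2 and 12.7 CPM on 20 kPa and 0.601 and 0.87 CPM on glass. All 3 groups lay apart. It was 12.1-fold higher on 1 kPa (log2 3.60, SE 0.23, edgeR adjusted p = 7.31e-14) and 18.5-fold higher on 20 kPa (log2 4.21, SE 0.22, edgeR adjusted p = 4.05e-16) than on glass. On 1 kPa it was lower than on 20 kPa (-0.61, SE 0.14, edgeR adjusted p = 0.00151). Of its exonic length, 13.7% overlaps the antisense gene Gm43352, which had 1 to 6 counts per library, against 13 and 15 counts of Lef1 on glass.

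Notum, a secreted enzyme that removes the lipid from Wnt proteins, was at 10.7 and 10.4 CPM on 1 kPa, 9.75 and 10.4 CPM on 20 kPa and 1.43 and 1.74 CPM on glass. Its level was similar on the gels, with no call between them (0.06, SE 0.14, edgeR adjusted p = 0.813), and lay 2.74 (SE 0.19, edgeR adjusted p = 3.72e-13) and 2.68 (SE 0.19, edgeR adjusted p = 7.28e-13) above glass on 1 kPa and 20 kPa. Of its exonic length, 38.1% overlaps 2 antisense genes, and whether counting used strand is not given in the sources used here. Those genes had at most 9 counts in a library each, against 185 to 219 counts of Notum on the gels.

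Axin2, a scaffold of the complex that breaks down beta-catenin and the most widely used readout of canonical Wnt signalling, was low in every group. It was at 8.87 and 7.29 CPM on 1 kPa, 9.50 and 9.25 CPM on 20 kPa and 2.96 and 4.18 CPM on glass. Gels and glass did not overlap, and the rises were 1.20 (SE 0.18, edgeR adjusted p = 2.45e-06) on 1 kPa and 1.41 (SE 0.18, edgeR adjusted p = 1.06e-07) on 20 kPa. Apcdd1, a membrane protein that binds Wnt and is linked to hair growth, was at 8.04 and 6.84 CPM on 1 kPa, 8.48 and 7.51 CPM on 20 kPa and 2.91 and 2.32 CPM on glass. It rose by 1.5 (SE 0.19, edgeR adjusted p = 1.44e-07) on 1 kPa and 1.59 (SE 0.19, edgeR adjusted p = 3.6e-08) on 20 kPa. Neither gene had a call between the gels (edgeR adjusted p = 0.386 for Axin2 and 0.732 for Apcdd1).

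Nkd1 and Nkd2, which bind the transducer Dishevelled and dampen the signal, rose less. Nkd1 was at 7.41 and 7.40 CPM on 1 kPa, 10.04 and 9.73 CPM on 20 kPa and 3.74 and 4.18 CPM on glass. It rose by 0.91 (SE 0.17, edgeR adjusted p = 4.42e-05) on 1 kPa and by 1.32 (SE 0.16, edgeR adjusted p = 4.88e-08) on 20 kPa. Nkd2 was at 62.4 and 70.1 CPM on 1 kPa, 59.1 and 54.5 CPM on 20 kPa and 49.1 and 52.0 CPM on glass. It rose on 1 kPa over glass by 0.39 (SE 0.08, edgeR adjusted p = 7.83e-05), and on 20 kPa the value was 0.17 (SE 0.08, edgeR adjusted p = 0.0721), which passed with total counts or without glass replicate 2 (0.0422 to 0.0426). The gels differed in Nkd1 (-0.42, edgeR adjusted p = 0.0404) and Nkd2 (0.22, edgeR adjusted p = 0.035) near the threshold. The call of Nkd1 was lost with DESeq2 and without any one gel library (0.114 to 0.21), with values of -0.46 to -0.40 under all alternatives. That of Nkd2 was lost without 1 kPa replicate 2, without either 20 kPa library, with DESeq2, with total counts and with unfiltered genes (0.0518 to 0.466).

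Tcf7, another DNA-binding partner that Wnt signals induce, was at 4.68 and 5.32 CPM on 1 kPa, 7.65 and 6.39 CPM on 20 kPa and 4.21 and 3.36 CPM on glass. It rose on 20 kPa over glass by 0.88 (SE 0.18, edgeR adjusted p = 0.000272). On 1 kPa the value against glass was 0.38 (SE 0.20, edgeR adjusted p = 0.114), and against 20 kPa it was -0.49 (SE 0.18, edgeR adjusted p = 0.0507), which passed under 6 of 13 alternatives, among them the omission of either glass library (0.0242 to 0.0497). The other partners, Tcf7l1 and Tcf7l2, had no call in any pair, at 34.5 to 42.2 CPM and 37.0 to 44.7 CPM in the 6 libraries. Tcf7l2 on 1 kPa against glass (-0.14, edgeR adjusted p = 0.178) passed without glass replicate 1 (0.0481).

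Ctnnb1, which encodes beta-catenin, the effector of the canonical branch and a part of cell junctions, was the most abundant Wnt gene per length, at 114 CPM per kb on 1 kPa, 152 CPM per kb on 20 kPa and 133 CPM per kb on glass. It was at 599 and 580 CPM on 1 kPa, 819 and 761 CPM on 20 kPa and 670 and 713 CPM on glass. The groups did not overlap, with the soft gel lowest and the stiffer gel highest. It was lower on 1 kPa than on 20 kPa (-0.42, SE 0.06, edgeR adjusted p = 2.36e-06). The smaller differences against glass were -0.23 on 1 kPa (edgeR adjusted p = 0.00185), lost without 1 kPa replicate 2 (0.0651), and 0.19 on 20 kPa (edgeR adjusted p = 0.00887), lost without 20 kPa replicate 1 (0.171). These are RNA levels, whereas beta-catenin is known to be regulated mainly through protein stability. Axin1, the constitutively expressed relative of Axin2, was at 53.4 to 62.0 CPM. Its rise on 1 kPa (0.18, SE 0.07, edgeR adjusted p = 0.038) was lost under 9 of 13 alternatives. Among them was every omission of a library but glass replicate 2, and values were 0.15 to 0.20 over all alternatives.

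**Figure D3:**
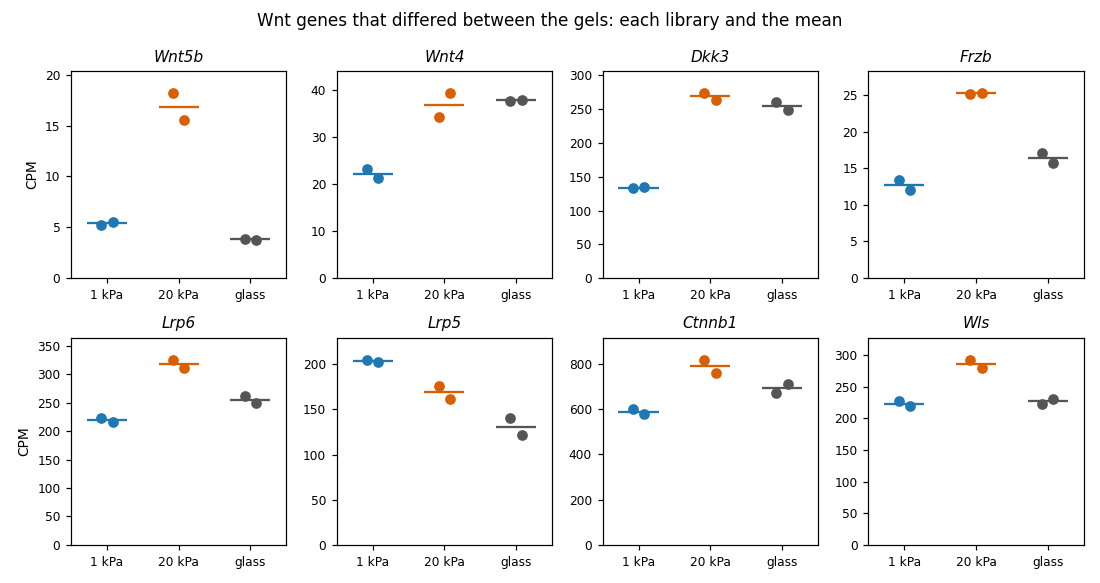
CPM of 8 Wnt genes in each library, by substrate, on axes that start at 0; points are libraries and lines the mean of 2. Wnt5b, Frzb, Lrp6, Ctnnb1 and Wls are highest on 20 kPa, Wnt4 and Dkk3 are low on 1 kPa alone, and Lrp5 is highest on 1 kPa.

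Summed over each class, levels per length described the same shifts. The 9 frizzled genes summed to 187.5 and 187.1 CPM per kb on 1 kPa, 216.5 and 201.3 CPM per kb on 20 kPa and 132.7 and 126.7 CPM per kb on glass. The 7 secreted antagonists summed to 163 and 162 CPM per kb on 1 kPa, 239 and 237 CPM per kb on 20 kPa and 133 and 128 CPM per kb on glass. The sum of the 8 ligands was 25.7 and 25.2 CPM per kb on 1 kPa, 31.4 CPM per kb in both 20 kPa libraries and 24.3 and 24.9 CPM per kb on glass. The co-receptors and alternative receptors summed to 95.22 and 95.98 CPM per kb on 1 kPa, 100.5 and 96.1 CPM per kb on 20 kPa and 117.7 and 116.1 CPM per kb on glass. Ryk set that order, since the other 4 genes of the class summed to 46.45 and 44.99 CPM per kb on 1 kPa, 50.63 and 47.84 CPM per kb on 20 kPa and 41.71 and 38.48 CPM per kb on glass. Antagonist transcripts stood well above ligand transcripts per length in every library. Of the antagonist sum, Dkk3 gave 39.9, 80.1 and 75.9 CPM per kb on 1 kPa, 20 kPa and glass on average. Its action on Wnt signalling is less clear. Sfrp1 gave 65.6, 79.1 and 28.6 CPM per kb in the same order. No test was made of these sums, since 2 against 2 libraries cannot reach a two-sided exact permutation p below 0.333.

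**Figure D4:**
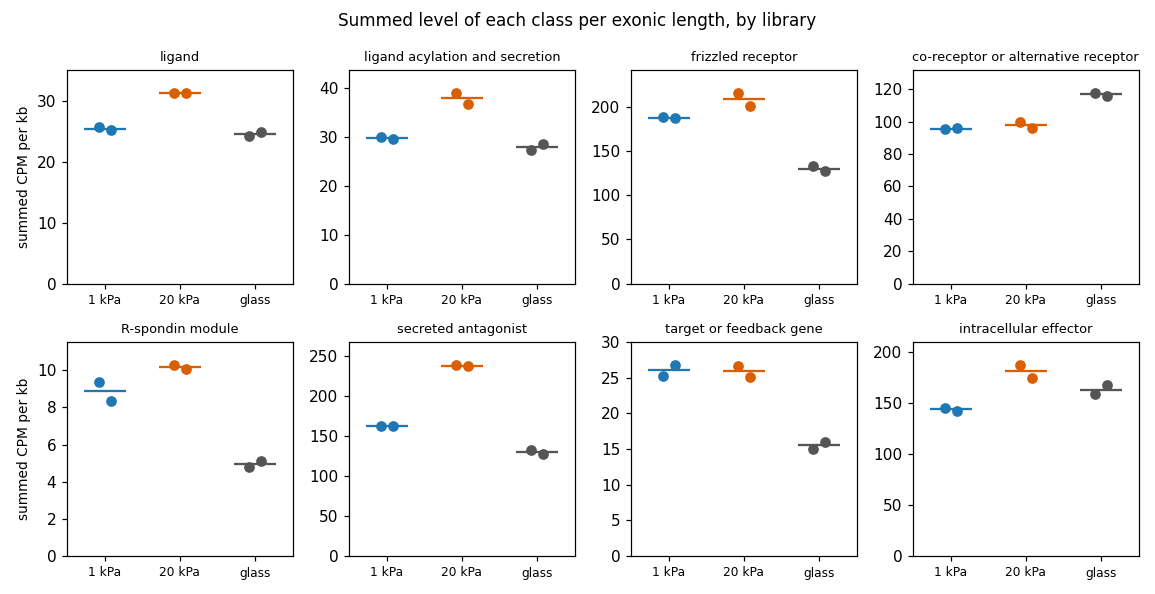
Summed CPM per kb of exonic length of each class of Wnt genes in each library, by substrate; points are libraries, lines the mean of 2, and axes start at 0. Secreted antagonists reach 239 CPM per kb on 20 kPa against 133 CPM per kb at most on glass, and the co-receptor class is highest on glass, through Ryk.

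Of 97 other genes of the pathway, 80 were tested, of which 36 were higher and 17 lower on 1 kPa and 32 higher and 18 lower on 20 kPa than on glass. Over all tested genes, 23.0% were higher and 22.0% lower on 1 kPa, and 22.3% higher and 19.6% lower on 20 kPa. The counts of lower genes lay near these shares. Of 12 secreted regulators of this list, 6 were tested, of which 6 were higher on 1 kPa and 5 on 20 kPa. Of these, Sostdc1 (0 counts on glass) and Rspo4 (3 and 5 counts on glass) passed the filter through the gels and could only be tested if higher there. Draxin, a secreted antagonist known from axon guidance, averaged 189 ± 5.54 CPM on 1 kPa, 141 ± 5.13 CPM on 20 kPa and 16.3 ± 0.787 CPM on glass (SD, n = 2 each; edgeR adjusted p = 6.88e-26 and 2.18e-24 over glass). Rspo1, an R-spondin, averaged 9.15 ± 0.46 CPM on 1 kPa, 6.92 ± 0.759 CPM on 20 kPa and 1.30 ± 0.536 CPM on glass (edgeR adjusted p = 8.03e-12 and 5e-10 over glass). Of 20 tested genes of the beta-catenin destruction complex and its transducers, 4 rose and 5 fell on 1 kPa, and 3 rose and 5 fell on 20 kPa, close to the share of all genes.

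Known canonical targets outside the feedback genes did not move one way. Of 10 tested, 3 rose and 3 fell on 1 kPa, and 3 rose and 6 fell on 20 kPa. For comparison, 23.0% of all tested genes rose and 22.0% fell on 1 kPa, and 22.3% rose and 19.6% fell on 20 kPa. Ccnd1, which encodes cyclin D1 and also responds to growth factors, averaged 108 ± 4.98 CPM on 1 kPa, 131 ± 0.0707 CPM on 20 kPa and 390 ± 18.9 CPM on glass (SD, n = 2 each). It fell by 1.85 (SE 0.06, edgeR adjusted p = 5.02e-21) and 1.57 (SE 0.06, edgeR adjusted p = 2.05e-19) on 1 kPa and 20 kPa. Fst, the activin-binding follistatin, rose by 1.33 (SE 0.06, edgeR adjusted p = 1.81e-17) and 0.78 (SE 0.06, edgeR adjusted p = 7.53e-12). In the planar polarity and calcium branches, listed together, 10 of 19 rose and 6 fell on 1 kPa, and 7 rose and 4 fell on 20 kPa. Daam2, a formin that links Dishevelled to actin, averaged 18.9 ± 0.573 CPM on 1 kPa, 52.2 ± 1.92 CPM on 20 kPa and 7.92 ± 0.7 CPM on glass (edgeR adjusted p = 1.11e-10 and 1.18e-19 over glass).

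Markers of other cell types also differed between the substrates, in both directions. Of all tested genes, 23.0% were higher and 22.0% lower on 1 kPa than on glass, and 22.3% higher and 19.6% lower on 20 kPa. Between the gels, 8.94% were lower on 1 kPa. Of 9 tested chondrocyte markers, 6 were higher and 1 lower on 1 kPa than on glass, and 8 higher and 1 lower on 20 kPa than on glass. The 1 lower than on glass was Sox9, the factor that specifies cartilage, at -0.80 on 1 kPa (edgeR adjusted p = 4.99e-13) and -0.18 on 20 kPa (edgeR adjusted p = 0.0078). All 9 were lower on 1 kPa than on 20 kPa, as were 17 of the 44 tested Wnt genes, while 3 Wnt genes were higher. Col2a1, the cartilage collagen, averaged 274 ± 9.25 CPM on 1 kPa, 518 ± 17.8 CPM on 20 kPa and 143 ± 14.2 CPM on glass (SD, n = 2 each), while the cartilage matrilin Matn1 had 0 counts in the 4 gel libraries and 4 counts in each glass library. Of 6 dermal papilla markers, 4 were higher and 1 lower on 1 kPa, and 5 higher and 1 lower on 20 kPa, with sums of 117 to 125 CPM on 1 kPa, 119 to 122 CPM on 20 kPa and 105 to 108 CPM on glass. Keratinocyte markers summed to 42.3 to 47.0 CPM on 1 kPa, 45.2 to 45.6 CPM on 20 kPa and 93.3 to 102 CPM on glass, where Perp made up most of the sum, with 1 of 6 tested higher and 4 lower on each gel. Krt5, Krt14 and Dsp had 2 to 11, 5 to 15 and 4 to 11 counts per gel library. They passed the filter through glass and could only be tested if lower on the gels. Endothelial markers summed to 31.8 to 35.1 CPM on 1 kPa, 29.3 to 29.6 CPM on 20 kPa and 15.8 to 16.7 CPM on glass, with 5 of 8 higher on 1 kPa, 6 on 20 kPa and 0 lower. Schwann cell and melanocyte markers summed to 40.2 to 40.3 CPM on 1 kPa, 44.6 to 44.8 CPM on 20 kPa and 19.7 to 19.8 CPM on glass, with 4 of 6 tested higher on 1 kPa and 6 on 20 kPa. Sox10 had 19 and 7 counts on glass and passed the filter through the gels. Dct had 2 and 3 counts on glass and passed through 20 kPa. Skeletal muscle markers summed to 30.6 to 32.0 CPM on 1 kPa, 17.9 to 19.9 CPM on 20 kPa and 12.8 to 13.1 CPM on glass, with 4 of 5 tested higher on 1 kPa and 3 on 20 kPa, and the muscle regulator Myod1 had 0 to 7 counts per library. On glass Myog had 1 and 2 counts, Myh3 3 and 3, and Actn2 1 and 3. These genes passed the filter through the gels and could only be tested if higher there. Macrophage and leukocyte markers summed to 56.1 CPM in both 1 kPa libraries, 24.8 to 28.3 CPM on 20 kPa and 16.1 to 17.6 CPM on glass, with 2 to 5 counts per library of the pan-leukocyte gene Ptprc. That order was mainly that of Cd14, at 42.5 CPM on 1 kPa, 14.1 CPM on 20 kPa and 5.26 CPM on glass on average. Of the 5 tested, 2 were higher and 0 lower on 1 kPa, and 2 higher and 1 lower on 20 kPa. Pericyte and smooth muscle markers summed to 222 to 231 CPM on 1 kPa, 255 to 269 CPM on 20 kPa and 322 to 362 CPM on glass, mostly from Cspg4, at 187 CPM on 1 kPa, 231 CPM on 20 kPa and 299 CPM on glass on average. Of the 8, 4 were higher and 2 lower on 1 kPa, and 3 higher and 3 lower on 20 kPa, with Rgs5, Kcnj8 and Abcc9 higher on each gel. Rgs5 had 7 and 1 counts on glass and passed the filter through the gels. The part of these cells in the Wnt results was not tested.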

How the data were processed

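RNA of 6 libraries was analysed from 1 table of raw counts per gene, deposited by the authors without normalisation. The tools named per the submitters' processing notes were featureCounts, STAR 2.7.10b, cutadapt and Trim Galore, with the build mm10; for settings, annotation and strand use the sources used here give nothing. Identifiers were matched to GENCODE M21 (GRCm38, the assembly of mm10) for symbols, positions and exonic lengths, with 91.3% of 57010 matched. The groups and replicate numbers come from the sample titles. Libraries of a group differed by more than sampling noise.

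Genes were kept with filterByExpr and scaled with TMM (edgeR 4.0.16, R 4.3.3). All 6 libraries entered 1 quasi-likelihood fit with group as the term and 3 residual degrees of freedom; p-values were adjusted by Benjamini-Hochberg over 16093 genes. The SE is the absolute log2 fold change over the square root of the F statistic. CPM per kb divides CPM by the union of exons. The alternatives were RLE scaling, total counts, DESeq2 1.42.0, no filter, a filter of 1 CPM, pairwise fits, a replicate block, each library left out, and, for levels per length, the longest transcript. The code was tested on simulated data. All 46 members could be named, with full values for those changed at least 2-fold at 1 CPM or more and for the target genes; others follow their role, and at most the 4 smallest p of each other list, plus the defining markers. The members and lists were chosen with earlier results of these data known.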

Additional observations from a re-analysis of the deposited data

How the results depend on the processing

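Of 132 values (44 genes in 3 pairs), 85 passed, and 67 of these kept their call and direction under every alternative that tested them. The alternatives numbered 13, and Sfrp4 was not tested under the filter of 1 CPM. No value that passed changed sign. Summed over the 13 alternatives, values that passed in neither the main fit nor the alternative changed sign 23 times. DESeq2 lost 8 calls and total counts 3. With the longest transcript in place of all exons, 16 Wnt genes in place of 15 reached 10 CPM per kb on glass.

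The least stable count was that of Wnt genes higher on 1 kPa than on 20 kPa, 3 in the main fit, which was 1 with DESeq2 and 0 to 4 when 1 library was left out; it was 0 without 20 kPa replicate 2 and 1 without 20 kPa replicate 1 or 1 kPa replicate 2, and the cause was not tested. When 1 library was left out, the Wnt genes lower on 1 kPa than on 20 kPa numbered 12 to 18. On 1 kPa against glass, 20 to 23 were higher and 6 to 9 lower, and on 20 kPa against glass 25 to 28 were higher and 4 to 5 lower.

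Same-numbered libraries did not deviate together (correlations of -0.035 to -0.016 across genes). This cannot show whether they share an animal or a culture, which the labels do not say. With the replicate block, 22 Wnt genes were higher and 9 lower on 1 kPa than on glass, 27 higher and 6 lower on 20 kPa than on glass, and 3 higher and 16 lower on 1 kPa than on 20 kPa. Genes near the floor of 3 counts, Wnt2 and Rnf43, could not be compared at this depth.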
